A study of Homo sapiens with 3 samples.

Results

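The urea cycle and arginine metabolism are described here by 10 genes, chosen by name among the 22827 genes of the deposited table. All 10 were found by symbol. They encode the activator synthase NAGS, the cycle enzymes CPS1, OTC, ASS1, ASL, ARG1 and ARG2, the mitochondrial carriers SLC25A15 and SLC25A13, and ODC1, which opens the polyamine branch. The 3 RNA-seq libraries came from Hep3B, by its label a line of liver cancer cells, and comprised 1 of USP39-KO cells, 1 of SIRT7-KO cells and 1 of control cells. USP39 is a deubiquitinase homologue that acts in the spliceosome, and SIRT7 is a nuclear deacylase. The labels name the knocked-out gene but not how the knockouts were made, whether each is 1 clone, or what the control cells carried. Since each group was a single library, no difference has a replicate check, and no test or p-value is given. Every interval is an exact 95% interval that covers counting error only, and every comparison describes these libraries. In bulk RNA, fewer cells of a kind and less RNA per cell cannot be told apart.

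The urea cycle turns ammonia into urea and runs in full mainly in periportal hepatocytes. NAGS makes N-acetylglutamate, the obligate activator of CPS1. CPS1 joins ammonia and bicarbonate to carbamoyl phosphate in the mitochondrion, and OTC adds it to ornithine to give citrulline. Citrulline leaves through the carrier SLC25A15 in exchange for ornithine. In the cytosol ASS1 joins it to aspartate, which SLC25A13 exports from the mitochondrion, and ASL splits the product into arginine and fumarate. Arginase, ARG1 in the hepatocyte cytosol and ARG2 in mitochondria of many tissues, releases urea and ornithine. ODC1 turns ornithine into putrescine, the first polyamine. Many cells outside the liver use ASS1 and ASL only to make arginine, and ASS1 is silenced in a share of hepatocellular carcinomas.

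Counts summed to 16630636 in USP39-KO, 16151522 in SIRT7-KO and 19427940 in the control. The knocked-out genes kept part of their reads: USP39 stood at 0.688 times the control level in USP39-KO (1066 reads, against 1829 in the control), and SIRT7 at 0.736 times in SIRT7-KO (608 reads, against 984 in the control). The hepatocyte identity of the label was read from 20 marker genes. Of these, 14 had under 10 reads in every library, and 8 (ALB, AFP, TTR, APOA2, APOB, APOC3, AHSG and GPC3) were listed at 0 in all 3. The summed level of the 20 markers was 3.69 FPKM in USP39-KO, 6.79 in SIRT7-KO and 6.05 in the control, where FPKM is the read count scaled for gene length and library total. Markers of intestine (0.0427, 0.0782 and 0.109 FPKM), endothelium (0.183, 0.254 and 0.232), kidney tubule (0.247, 0.162 and 0.344) and blood (1.51, 1.90 and 1.47) were also low in USP39-KO, SIRT7-KO and the control. Fibroblast markers summed to 14.6, 12.6 and 12.7 FPKM, of which COL1A1 made up 12.7, 9.60 and 10.4. A listed 0 does not show that a gene was silent, since the ribosomal protein genes RPL7A and RPS18 were also at 0 in every library. Which part cell identity had in the levels below was not tested.

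Reads were listed for part of the cycle only, and at unequal levels. The cytosolic arginine-making step ASS1 and the mitochondrial entry step CPS1 were abundant, ASL and SLC25A15 were moderate, and NAGS, ARG2 and ARG1 were at or below 1.09 FPKM. OTC, the step between CPS1 and ASS1, was listed at 0 reads, which does not show that it was silent. The order from ASS1 through CPS1, ODC1, SLC25A13 and SLC25A15 to ASL was the same in all 3 libraries, and no neighbouring intervals overlapped among these 6 genes at the listed lengths. Per length of the longest coding transcript the order was the same, but SLC25A15 and ASL did not separate, with 8.11 and 8.08 FPKM in USP39-KO, 9.68 and 9.53 in SIRT7-KO and 9.15 and 8.77 in the control. Below ASL, ARG2 and NAGS did not separate in USP39-KO or in SIRT7-KO, ARG2 and ARG1 did not separate in USP39-KO, and ARG1 and OTC did not separate in any library.

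**Figure D1:**
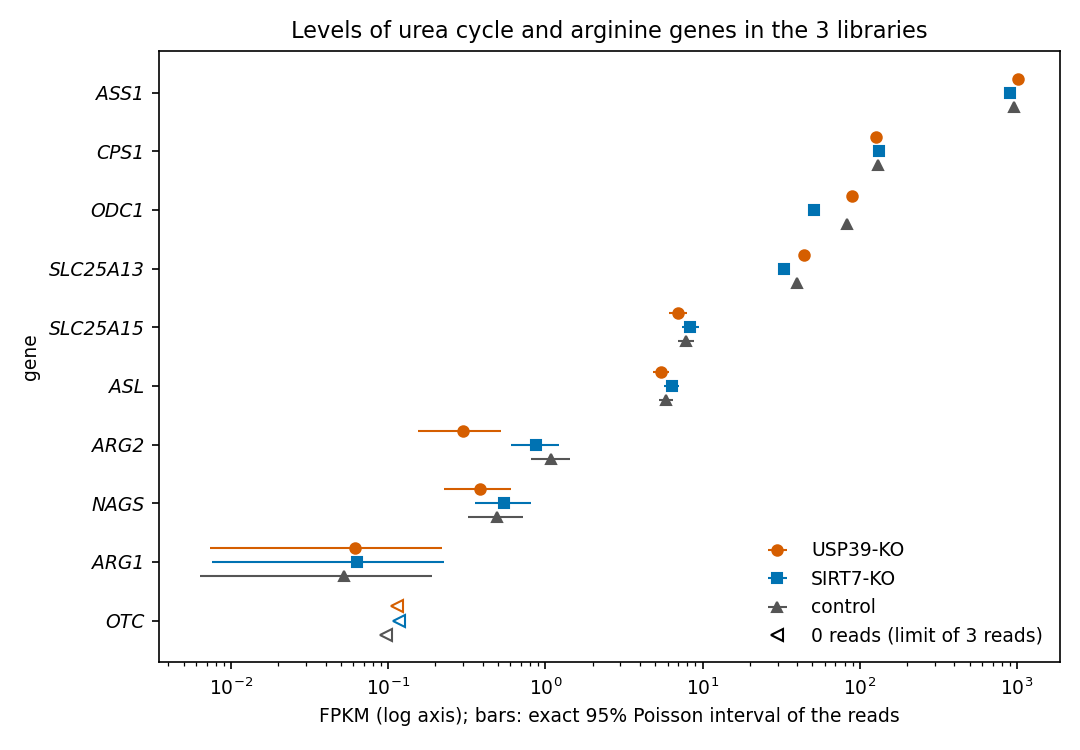
Level of each of the 10 genes (rows, ordered by the control) in FPKM on a log axis, with 1 point per library and exact 95% Poisson intervals of its reads; open triangles mark OTC, with 0 reads, at the level that 3 reads would give. ASS1 lies between 898.1 and 1017 FPKM, while ARG1 lies between 0.0524 and 0.0630 FPKM; the ODC1 point of SIRT7-KO (51.4 FPKM) and the ARG2 point of USP39-KO (0.298 FPKM) lie left of the other points of their rows.

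NAGS (ENSG00000161653; chromosome 17, 44004546 to 44009063, plus strand; gene positions are those of GENCODE 29 on GRCh38) had 18 reads in USP39-KO, 25 in SIRT7-KO and 27 in the control. These were 0.384, 0.548 and 0.492 FPKM, so the activator synthase stood far below the enzyme it serves. The 3 intervals overlapped, and at this depth no difference was detectable (log2 ratio -0.34, interval -1.29 to 0.57, in USP39-KO over control and 0.14, -0.70 to 0.98, in SIRT7-KO over control).

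CPS1 (ENSG00000021826; chromosome 2, 210477682 to 210679107, plus strand) had 22163 reads in USP39-KO, 22378 in SIRT7-KO and 26607 in the control. Its level was 127.6 FPKM in USP39-KO, 132.7 in SIRT7-KO and 131.1 in the control, which ranked it 198th, 188th and 190th among all genes. The libraries were nearly level: the ratio to control was 0.983 (0.966 to 1.00) in USP39-KO and 1.00 (0.984 to 1.02) in SIRT7-KO. The listed CPS1 length of 10444 bases is longer than its longest coding transcript in GENCODE 29, 5821 bases. On that transcript length CPS1 would stand at 228.9, 238.0 and 235.3 FPKM in USP39-KO, SIRT7-KO and the control, and all 10 genes kept their places. CAD, whose first domain makes carbamoyl phosphate for pyrimidines in the cytosol, had 23.2, 25.1 and 27.2 FPKM. At the listed lengths CPS1 exceeded CAD 5.49-fold in USP39-KO (5.29 to 5.70), 5.28-fold in SIRT7-KO (5.10 to 5.48) and 4.83-fold in the control (4.68 to 4.99). No transcript length was tried for CAD, and the intervals do not cover the choice of length.

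OTC (ENSG00000036473; chromosome X, 38352545 to 38421450, plus strand) was listed at 0 reads in all 3 libraries. By counting error alone, 0 reads would allow up to 3, or 0.114 FPKM in USP39-KO, 0.117 in SIRT7-KO and 0.0974 in the control, but since RPL7A and RPS18 were also listed at 0 this sets no limit on the OTC RNA in the cells. No word of 50 bases of the longest OTC coding transcript occurs in a transcript of another gene in GENCODE 29. No ratio was formed.

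The ornithine and citrulline carrier SLC25A15 (ENSG00000102743; chromosome 13, 40789412 to 40810111, plus strand) had 214 reads in USP39-KO, 248 in SIRT7-KO and 282 in the control. Its levels were 7.005, 8.36 and 7.90 FPKM, and both intervals of the log2 ratio to control included 0 (USP39-KO -0.16, -0.42 to 0.10; SIRT7-KO 0.07, -0.19 to 0.32). The isoform SLC25A2, which carries the same substrates, was listed at 0 in all 3 libraries. Of the 50-base words of the SLC25A15 transcript, 2.73% occur in its 4 pseudogenes.

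ASS1 (ENSG00000130707; chromosome 9, 130444929 to 130501274, plus strand) was the most abundant of the 10 genes. It had 51600 reads in USP39-KO, 44242 in SIRT7-KO and 56967 in the control, or 0.310%, 0.274% and 0.293% of all counts. Its level of 1017 FPKM in USP39-KO, 898.1 in SIRT7-KO and 961.4 in the control ranked it 12th, 16th and 13th among all genes. Per length of its longest coding transcript ASS1 would stand at 1573, 1388 and 1486 FPKM. USP39-KO was highest and SIRT7-KO lowest. The ratio to control was 1.07 (1.06 to 1.08) in USP39-KO and 0.925 (0.913 to 0.936) in SIRT7-KO. These ratios exceed counting error at this depth, and the spread between cultures was not measured. ASS1 has many processed pseudogenes. Of the 50-base words of its longest coding transcript, 9.15% occur in transcripts of 12 other genes. AL353705.3 holds the most of them, 2.34%, and 8 genes named as ASS1 pseudogenes hold 5.77%. No gene named as an ASS1 pseudogene was listed in the deposited table, so how such reads were placed is unknown.

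ASL (ENSG00000126522; chromosome 7, 66075798 to 66093558, plus strand) had 288 reads in USP39-KO, 330 in SIRT7-KO and 365 in the control, or 5.42, 6.39 and 5.88 FPKM. The step after ASS1 was therefore far less abundant than ASS1. At the listed lengths the ASS1 level exceeded that of ASL 188-fold in USP39-KO (167 to 211), 140-fold in SIRT7-KO (126 to 157) and 163-fold in the control (148 to 182). The interval of the log2 ratio of ASL included 0 in both knockouts (USP39-KO over control -0.10, -0.33 to 0.12; SIRT7-KO over control 0.11, -0.11 to 0.32). An annotated gene on the same strand, AC068533.4, shares 17.6% of the exon bases of ASL and is itself listed in the deposited table. The sources used here do not say how reads shared by both genes were counted. ADSL, a paralog of ASL that acts in purine synthesis, had 9.92 FPKM in USP39-KO, 7.30 in SIRT7-KO and 11.1 in the control, and its ratio to control was 0.902 (0.830 to 0.981) and 0.651 (0.593 to 0.714) in USP39-KO and SIRT7-KO.

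SLC25A13, also called citrin (ENSG00000004864; chromosome 7, 96120220 to 96322147, minus strand), had 2712 reads in USP39-KO, 1988 in SIRT7-KO and 2860 in the control. Its levels were 44.0, 33.2 and 39.7 FPKM, highest in USP39-KO and lowest in SIRT7-KO, in the same order as ASS1. The ratio to control was 1.12 (1.06 to 1.18) in USP39-KO and 0.828 (0.781 to 0.877) in SIRT7-KO. Its paralog SLC25A12, the carrier of aspartate and glutamate in muscle and brain, had 5.93, 6.98 and 6.54 FPKM in USP39-KO, SIRT7-KO and the control. At the listed lengths citrin exceeded it 7.41-fold in USP39-KO (6.74 to 8.16), 4.75-fold in SIRT7-KO (4.33 to 5.22) and 6.07-fold in the control (5.57 to 6.61).

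ARG1 (ENSG00000118520; chromosome 6, 131573144 to 131584332, plus strand), the arginase of the hepatic cycle, had 2 reads in each of the 3 libraries, or 0.0612 FPKM in USP39-KO, 0.0630 in SIRT7-KO and 0.0524 in the control. Counts this low give no usable ratio (USP39-KO over control 1.18, 0.0856 to 16.3; SIRT7-KO over control 1.19, 0.0863 to 16.4). AGMAT, a member of the arginase family named for the hydrolysis of agmatine, was the most abundant of the 3, with 388 reads in USP39-KO, 368 in SIRT7-KO and 457 in the control. Its levels of 9.33, 9.11 and 9.41 FPKM were nearly equal.

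ARG2 (ENSG00000081181; chromosome 14, 67619798 to 67651720, plus strand) had 12 reads in USP39-KO, 34 in SIRT7-KO and 51 in the control. Its levels were 0.298 FPKM in USP39-KO, 0.871 in SIRT7-KO and 1.09 in the control, and the interval of USP39-KO (0.154 to 0.521) lay below those of SIRT7-KO (0.603 to 1.22) and the control (0.808 to 1.43). ARG2 was 3.60-fold lower in USP39-KO than in the control (1.89 to 7.42; log2 ratio -1.81, -2.89 to -0.92). In SIRT7-KO over control the log2 ratio was -0.33 (-1.004 to 0.32), and in USP39-KO over SIRT7-KO it was -1.48 (-2.60 to -0.53). These values rest on few reads. Of the exon bases of ARG2, 37.4% overlap VTI1B on the opposite strand, and the sources used here do not say whether the counting used strand, so reads of the overlap cannot be told apart. VTI1B itself had 464 reads in USP39-KO, 446 in SIRT7-KO and 452 in the control, a ratio of 1.21 (1.06 to 1.38) and 1.17 (1.03 to 1.34) in USP39-KO and SIRT7-KO over control.

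The promoter of ARG2 is printed because it is the member farthest from its control level and its window holds a motif that few promoters hold. RefSeq promoter windows (GRCh38.p14, 300 bases around each start) matched all 10 genes, with 14 windows in all. The RefSeq start of ARG2 lies downstream of the GENCODE gene start given above. The part of the window before the GENCODE start is printed, with a 30-base site that lies after it, within the GENCODE gene, both 5′ to 3′ on the plus strand. Capitals mark TGACGTCA, the cyclic AMP response element, a palindrome that reads the same on both strands.
ARG2, chr14:67619670-67619797: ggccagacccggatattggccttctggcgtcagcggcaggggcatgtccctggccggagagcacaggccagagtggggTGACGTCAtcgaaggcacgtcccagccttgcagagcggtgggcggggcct
ARG2, chr14:67619845-67619874: caatgtggcggTGACGTCAcggggcgggcg
The motif occurs at positions -172 and -64 from the RefSeq start. It occurs in 1.85% of 35116 windows of this length and, among the members, in the ARG2 window alone. The ARG2 window is 71% G and C, against a median of 58.7% over all windows. The 1.85% was not matched for base composition. TGATGNAAT, the C/EBP-ATF element searched on both strands, occurs in 0.991% of windows and in none of the 14 member windows. These are matches of letters, and binding was not measured.

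ODC1 (ENSG00000115758; chromosome 2, 10439968 to 10448504, minus strand), the rate-limiting enzyme of polyamine synthesis, had 4396 reads in USP39-KO, 2463 in SIRT7-KO and 4747 in the control. Its levels were 89.1 FPKM in USP39-KO, 51.4 in SIRT7-KO and 82.3 in the control, and the interval of SIRT7-KO (49.4 to 53.4) lay well below the others. Set against the control, ODC1 was 1.09 in USP39-KO (1.05 to 1.14) and 0.618 in SIRT7-KO (0.588 to 0.649; log2 ratio -0.69, -0.77 to -0.62). USP39-KO exceeded SIRT7-KO 1.77-fold (1.68 to 1.86).

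Sites of CACGTG, the E-box read by MYC and related factors, are printed because ODC1 is a textbook MYC target and because they occur in the windows of the 4 most abundant members. Each site is 30 bases, 5′ to 3′ on the strand of the gene, with the motif, a palindrome, in capitals.
ODC1, chr2:10448024-10448053: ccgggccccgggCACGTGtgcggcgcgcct
ODC1, chr2:10447990-10448019: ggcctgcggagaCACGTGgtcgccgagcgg
ASS1, chr9:130444878-130444907: gcgcgtccccgcCACGTGtccccggtcacc
CPS1, chr2:210519660-210519689: tctagacacaggCACGTGacccaagcccca
SLC25A13, chr7:96322235-96322264: gcgcagcggggtCACGTGtccctgtccagc
CACGTG occurred in 4 of the 14 member windows, against 7.26% of the 35116 windows. ODC1 carried it in 1 of its 2 windows, ASS1 in 1 of 2 and CPS1 in 1 of 3. The ASS1 and SLC25A13 sites lie upstream of the GENCODE gene starts given above. The ODC1 and CPS1 sites lie within the GENCODE genes, the CPS1 site far from the gene start. Which RefSeq starts were in use in these cells was not tested, and binding was not measured. The windows of ODC1 are rich in G and C (79.0 and 80.7%, against a median of 58.7% over all windows), and those of CPS1 are not (36.7, 45.3 and 40.3%). Those of ASS1 (71.7 and 78.3%) and SLC25A13 (74%) are also rich in G and C. The 7.26% over all windows was not matched for base composition. MYC had 168 FPKM in USP39-KO, 163 in SIRT7-KO and 191 in the control, a ratio to control of 0.889 (0.864 to 0.914) and 0.846 (0.822 to 0.871) in USP39-KO and SIRT7-KO. In USP39-KO over SIRT7-KO the ratio of MYC was 1.05 (1.02 to 1.08), beside 1.77 for ODC1. Whether MYC had a part in the ODC1 levels was not tested.

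For USP39-KO over control, 8 of the 10 members had at least 10 reads in 1 or more libraries and were set against all 12726 such genes. A gene was counted when it was at least 2-fold apart and its interval excluded 0. Of the 8 members, 1 was lower, ARG2, and 0 were higher, against 3.37% of all genes lower and 1.49% higher. At 1.5-fold the counts were again 1 lower and 0 higher, against 6.4% and 3.19% of all genes. The other 7 lay within 1.5-fold, which is 87.5% of the 8, beside 86.3% of all genes. The interval of NAGS, which had few reads, reached beyond 1.5-fold lower. The median log2 ratio of the 8 was -0.063, beside -0.0022 over all genes, and it was 0.036 over the members with at least 100 reads, which leaves out ARG2 and NAGS. For ASS1, SLC25A13 and ODC1 the interval lay above 0, with the largest ratio 1.12. All are among the members with the most reads, where small ratios exceed counting error. The share of all genes whose interval excluded 0 was not computed.

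For SIRT7-KO over control, 0 of the 8 members were 2-fold higher and 0 were 2-fold lower, against 3.02% and 4.05% of all genes. At 1.5-fold 1 was lower, ODC1, and 0 were higher, against 7.83% and 7.21% of all genes. The median log2 ratio of the 8 was -0.056, beside -0.010 over all genes, and it was 0.0018 with no filter on reads. For ASS1, SLC25A13 and ODC1 the interval lay below 0, and the share of all genes whose interval excluded 0 was not computed here either. Both knockouts were set against the same control library, so the 2 sets of ratios are not independent. In USP39-KO over SIRT7-KO, which uses no control, ASS1 was 1.16-fold higher (1.14 to 1.17), SLC25A13 1.35-fold (1.28 to 1.43) and ODC1 1.77-fold, while CPS1 stood at 0.982 (0.964 to 1.00). By the 2-fold rule 1 of the 8 was lower there, ARG2, and 0 were higher, against 5.03% and 3.51% of all genes. At 1.5-fold 1 was lower and 1 higher, against 10.3% and 7.91%.

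**Figure D2:**
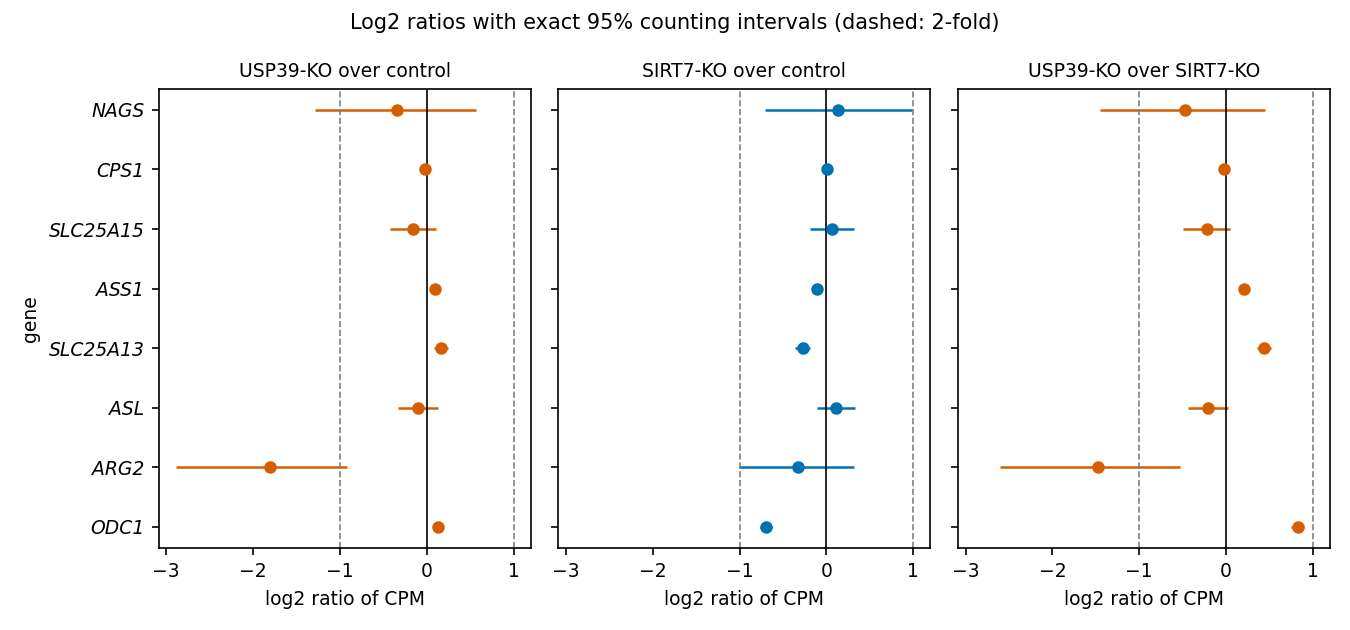
Log2 ratio of CPM (points) with exact 95% counting intervals (bars) for the 8 genes with at least 10 reads in a library, in USP39-KO over control, SIRT7-KO over control and USP39-KO over SIRT7-KO; dashed lines mark 2-fold. ARG2 lies beyond 2-fold in both panels of USP39-KO (-1.81 and -1.48), ODC1 lies at -0.69 in SIRT7-KO over control, and CPS1 lies on the zero line in all 3 panels.

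**Figure D3:**
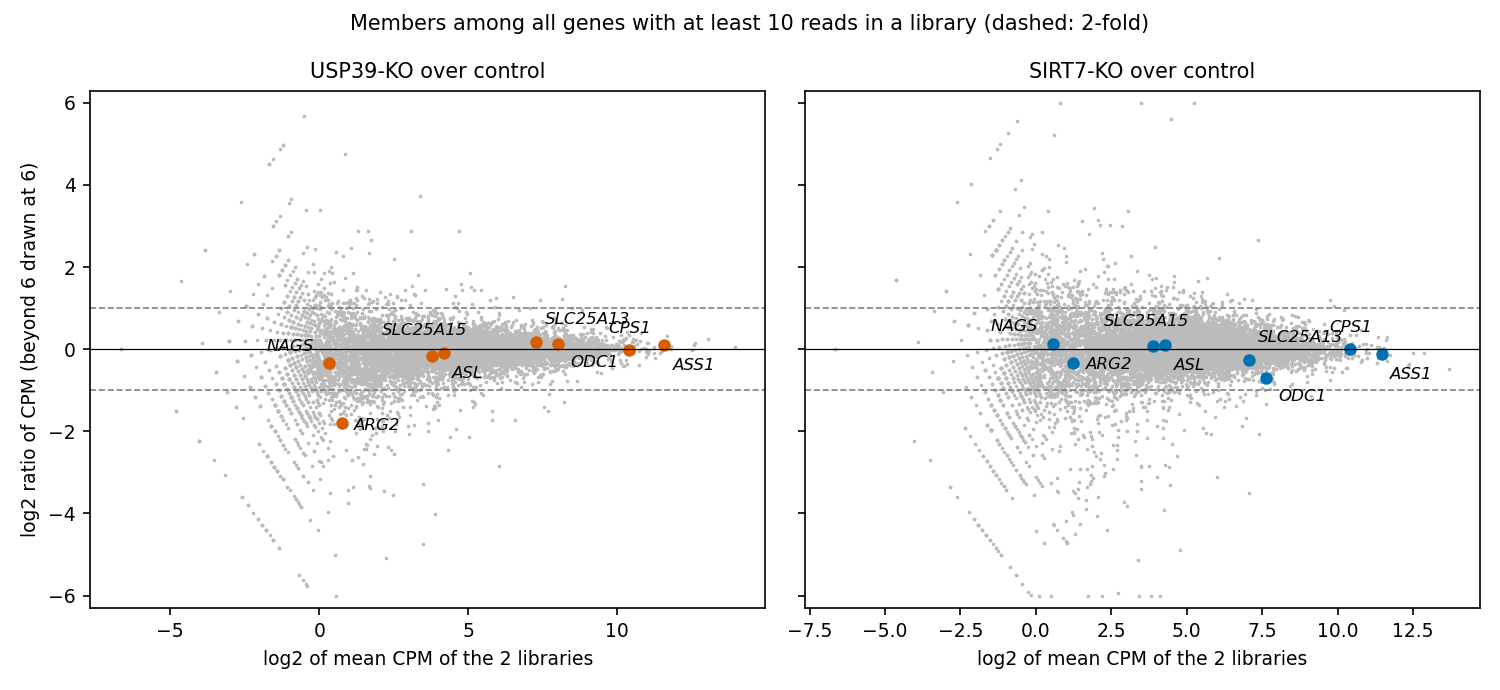
Log2 ratio of CPM against the log2 mean CPM of the 2 libraries for all 12726 genes with at least 10 reads in a library (grey) and the 8 members among them (coloured), in USP39-KO over control and SIRT7-KO over control; dashed lines mark 2-fold. CPS1 and ASS1 sit at the right end near 0, and ARG2 in USP39-KO (-1.81) lies among genes of few reads, where the grey cloud is wide.

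The genes around the cycle were read from 8 lists holding 95 further genes, of which 94 were found and 75 had at least 10 reads in a library. By the 2-fold rule 3 of the 75 were lower and 0 higher in USP39-KO over control (4% lower, against 3.37% of all genes). In SIRT7-KO over control 6 were lower and 3 higher (8% and 4%, against 4.05% and 3.02%). Those lower in USP39-KO were SLC7A7, PRODH and HNF4A. Those lower in SIRT7-KO were SLC7A7, PRODH, HNF4A, ASNS, CEBPA and PPARGC1A, against the same control library.

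In the polyamine branch none of 16 genes passed the 2-fold rule in either knockout. Against the control, that rule took in 3.37% of all genes on the lower side and 1.49% on the higher side for USP39-KO. For SIRT7-KO the shares were 4.05% and 3.02%. SAT1, which acetylates polyamines for breakdown and export, had 27.5 FPKM in USP39-KO, 47.6 in SIRT7-KO and 26.5 in the control. SIRT7-KO was the high library, at 1.78 times the control (1.65 to 1.91), and SAT1 was the only gene of the list past 1.5-fold with an interval excluding 0. By that rule 7.21% of all genes were higher in SIRT7-KO. OAZ3, with 8, 11 and 5 reads in USP39-KO, SIRT7-KO and the control, stood at 2.62 times the control in SIRT7-KO, with an interval of 0.839 to 9.62. At the listed lengths ODC1 exceeded SAT1 3.24-fold in USP39-KO (3.03 to 3.46), 1.08-fold in SIRT7-KO (1.02 to 1.15) and 3.10-fold in the control (2.92 to 3.30). The ratio was thus lowest in SIRT7-KO. Its value, and how near it lies to equal levels, depend on the gene lengths used, and no transcript length was tried for SAT1. The synthases further down differed less. SRM had 67.3, 69.6 and 75.4 FPKM in USP39-KO, SIRT7-KO and the control, and SMS had 95.1, 103 and 98.1. EIF5A, the protein modified with the polyamine-derived hypusine and the most abundant of the list, had 123, 134 and 133 FPKM. The inhibitor of ODC1 protein OAZ1 had 52.4, 52.7 and 46.1 FPKM. AZIN1, the antizyme inhibitor and a paralog of ODC1, had 27.0, 20.03 and 21.3 FPKM, highest in USP39-KO at 1.28 times the control (1.22 to 1.35). AZIN2 had only 16, 14 and 23 reads.

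The list of other users of arginine also holds GAMT, which acts on a product made from arginine. Of the 6 measured genes in this list, 1 was higher by the rule in SIRT7-KO and none in USP39-KO. Over all genes 3.02% and 1.49% were higher. GAMT, which makes creatine from guanidinoacetate, had 202 reads in USP39-KO, 478 in SIRT7-KO and 265 in the control. It was 2.15-fold higher in SIRT7-KO than in the control (1.84 to 2.50) and stood at 0.900 in USP39-KO (0.746 to 1.08). GATM, which makes guanidinoacetate from arginine, had 0, 0 and 3 reads. The most abundant of the list was the arginyl-tRNA synthetase RARS1 at 48.4, 45.2 and 47.2 FPKM. The nitric oxide synthases NOS1 and NOS2 were at 0 reads and NOS3 had at most 1.

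Cationic amino acid transport and arginine sensing had the lowest list median in SIRT7-KO over control, -0.54 over 7 genes, with 1 lower by the 2-fold rule and 3 at 1.5-fold. Over all genes 4.05% and 7.83% were lower. SLC7A1, the main arginine importer of most cells, had 40.3 FPKM in USP39-KO, 24.7 in SIRT7-KO and 35.5 in the control, or 1.15 (1.10 to 1.19) and 0.687 (0.657 to 0.719) times the control. The liver importer SLC7A2 had 34.9, 31.8 and 39.2 FPKM. The mitochondrial basic amino acid carrier SLC25A29 had 0.663 times the control level in SIRT7-KO (0.608 to 0.721), and the lysosomal arginine sensor SLC38A9 0.611 times (0.529 to 0.705). SLC7A7, the light chain of an arginine exporter, had 6 reads in USP39-KO, 5 in SIRT7-KO and 23 in the control, with log2 ratios of -1.63 (-3.29 to -0.36) and -1.86 (-3.70 to -0.52). Its heavy chain SLC3A2, the most abundant of the list, had 88.5, 79.4 and 76.5 FPKM. In USP39-KO over SIRT7-KO all 7 genes had a log2 ratio above 0 (median 0.36), as had 6408 of all 12726 genes.

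**Figure D4:**
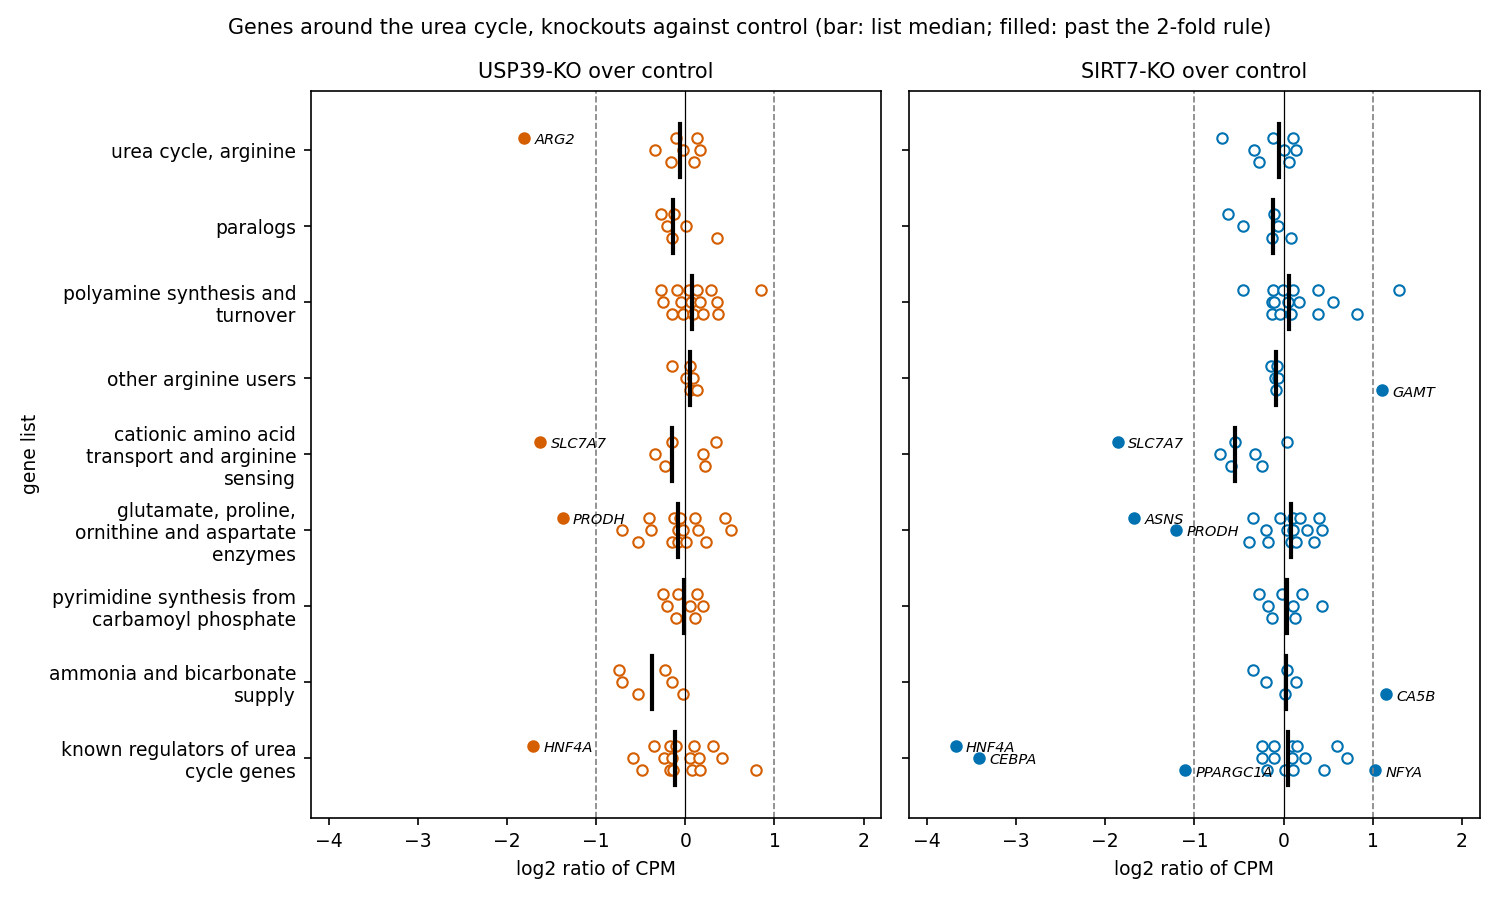
Log2 ratio of CPM for each gene with at least 10 reads in a library, by list (rows), in USP39-KO over control and SIRT7-KO over control; black bars are list medians, filled points are at least 2-fold apart with an interval excluding 0, and a gene may be in more than one list. The cationic transport row is shifted left in SIRT7-KO (median -0.54), and HNF4A and CEBPA are the points farthest left there (-3.68 and -3.42).

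Among 17 enzymes and carriers of glutamate, proline, ornithine and aspartate, 1 was lower by the rule in USP39-KO and 2 in SIRT7-KO. Over all genes 3.37% and 4.05% were lower. ASNS, asparagine synthetase, which competes with ASS1 for aspartate, had 4480 reads in USP39-KO, 970 in SIRT7-KO and 3693 in the control. USP39-KO over SIRT7-KO was 4.58-fold (4.27 to 4.91). PRODH, the first enzyme of proline breakdown, had 35 reads in USP39-KO, 39 in SIRT7-KO and 108 in the control, or 0.383 (0.254 to 0.565) and 0.430 (0.290 to 0.625) times the control. The glutamine transporter SLC1A5, the most abundant, had 89.0, 64.8 and 83.7 FPKM. OAT, which links ornithine to glutamate and proline, had 15.1, 13.7 and 11.3 FPKM. GOT2, the mitochondrial source of aspartate, had 41.8, 49.6 and 55.2 FPKM.

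Of 6 measured genes for ammonia and bicarbonate supply, CA5B, a mitochondrial carbonic anhydrase that provides bicarbonate, had 145 reads in USP39-KO, 374 in SIRT7-KO and 200 in the control. It was 2.23-fold higher in SIRT7-KO (1.87 to 2.66) and the only gene of this list past the rule. Over all genes 3.02% were higher in SIRT7-KO. GLUD1, glutamate dehydrogenase, had 49.9, 53.2 and 51.2 FPKM in USP39-KO, SIRT7-KO and the control. In USP39-KO over control all 6 had log2 ratios below 0, as had 6409 of all 12726 genes, and their median was -0.37, or -0.19 over those with at least 100 reads. Glutamine synthetase GLUL was at -0.53 (-0.61 to -0.44). No gene of the 8 for pyrimidine synthesis passed the rule in either knockout. For USP39-KO the rule took in 3.37% of all genes on the lower side and 1.49% on the higher side. For SIRT7-KO these shares were 4.05% and 3.02%. The most abundant gene of the pyrimidine list, CMPK1, had 48.0, 59.9 and 51.3 FPKM in USP39-KO, SIRT7-KO and the control.

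Of 18 measured regulators known to act on urea cycle genes or enzymes, 1 was lower by the rule in USP39-KO, and 3 were lower and 1 higher in SIRT7-KO. Over all genes 3.37% were lower in USP39-KO, and 4.05% were lower and 3.02% higher in SIRT7-KO. HNF4A, a nuclear receptor of hepatocytes that drives urea cycle genes, had 29 reads in USP39-KO, 7 in SIRT7-KO and 113 in the control, or 0.303 (0.194 to 0.459) and 0.0737 (0.0290 to 0.157) times the control. CEBPA, a liver transcription factor, had 10, 1 and 18 reads, and its ratio in SIRT7-KO over control was 0.0661 (0.00159 to 0.419). The coactivator PPARGC1A had 564, 331 and 849 reads, at 0.464 times the control in SIRT7-KO (0.408 to 0.528). NFYA, a subunit of the CCAAT-binding factor, was 2.03-fold higher in SIRT7-KO (1.81 to 2.28). Among the most abundant members, CPS1 stood at 0.983 and 1.00 times the control in USP39-KO and SIRT7-KO, and ASS1 at 1.07 and 0.925. SLC25A13 stood at 1.12 and 0.828 times the control, and ODC1 at 1.09 and 0.618. Whether these regulators had a part in the levels of the members was not tested. SIRT5, which removes acyl groups from CPS1 protein, had 1.58, 1.55 and 1.80 FPKM in USP39-KO, SIRT7-KO and the control, with both intervals of the log2 ratio to control including 0.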

How the data were processed

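The authors deposited 1 table of gene identifiers, gene lengths, raw read counts and FPKM for 3 libraries, per the file headers. Per the labels' protocols, Trizol was used for total RNA and an Illumina TruSeq kit for the libraries. The sources used here do not name the aligner, counting program, genome build or strand setting. The deposited FPKM were the counts over listed length and library total, checked on every gene with reads (largest relative difference 1.41e-07). Symbols came by Ensembl identifier from a gene-name table and GENCODE 29 (19649 of 22827 identifiers). Levels between genes are compared in FPKM. Ratios used TMM effective library sizes (edgeR 4.0.16, R 4.3.3; factors 0.9896, 1.0104 and 1.0000 in USP39-KO, SIRT7-KO and control), a prior of 0.5 counts for log2 ratios, and exact conditional binomial intervals (scipy 1.17.1). Ratios on the linear scale have no prior. Genes with at least 10 counts in a library were kept. The labels name no molecular identifiers, so reads may not be independent molecules; intervals and floors (3 counts) cover counting error only. With 1 library per group no count test was run. The ratios, intervals and fold rule were tested on simulated counts. Sequences came from RefSeq and transcripts from GENCODE 29. Members and lists were chosen with earlier results of these data known. Named beside the members are USP39, SIRT7, paralogs with at least 10 counts, the most abundant gene of each list and all genes past the 2-fold rule in a knockout against control; other genes, and VTI1B, RPL7A and RPS18, were named after their values were seen. The arginine sensor CASTOR2 was not found in the table.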

Additional observations from a re-analysis of the deposited data

How the results depend on the processing

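The 24 log2 ratios of the 8 members with at least 10 reads were recomputed with total counts, DESeq2 size factors, totals without mitochondrial-genome genes, totals without the 20 most abundant genes, and a prior of 5 counts. None of the 24 changed sign. With total counts 2 left their main interval, CPS1 and ASS1 in USP39-KO over SIRT7-KO (-0.056 and 0.18). The largest move, 0.28, was that of ARG2 in USP39-KO over control with a prior of 5 counts (-1.53, against -1.81). With that prior ARG2 stood at -1.21 in USP39-KO over SIRT7-KO, against -1.48. Some intervals that had included 0 came to exclude it, such as that of CPS1 in USP39-KO over control with total counts (-0.065 to -0.014). The counts of members and genes past the rule stayed within 1.5 times under these 5 settings and without a count filter. With at least 100 counts ARG2 dropped out, which left 0 members lower in USP39-KO over control and over SIRT7-KO. The gene counts were then 48 higher and 126 lower in USP39-KO over control (189 and 429 in the main setting), 136 and 210 in SIRT7-KO over control (384 and 515), and 221 and 281 in USP39-KO over SIRT7-KO (447 and 640). At 1.5-fold they were 406 and 814, 917 and 997, and 1006 and 1316, with 1 member lower in SIRT7-KO over control and 1 higher in USP39-KO over SIRT7-KO. The sign of the members' median log2 ratio depended on the count filter. With at least 100 counts it was 0.036 in USP39-KO over control (-0.063 in the main setting) and 0.092 in USP39-KO over SIRT7-KO (-0.12), and with no filter it was 0.0018 in SIRT7-KO over control (-0.056); these settings change which members enter. Of the 27 list medians, 4 moved by over 0.1, with at least 100 counts only: that of the members in USP39-KO over SIRT7-KO, those of cationic transport (0.021 in USP39-KO over control, against -0.15, and -0.43 in SIRT7-KO over control, against -0.54) and that of ammonia and bicarbonate supply (-0.19 in USP39-KO over control, against -0.37). Adding ASS1 pseudogenes to ASS1 was not run, as none was listed. The order of the members by level was the same per kilobase with TMM and on transcript length, an alternative chosen after seeing the data, on which SLC25A15 and ASL had overlapping intervals in all 3 libraries. Depth limits NAGS, ARG1, ARG2 and OTC. No replicate could be left out. No paired analysis was possible because each group has 1 library.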
